A study of Mus musculus with 12 samples.

Results

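Neutrophils taken from the inflamed peritoneum (PT) were compared with neutrophils from the bone marrow (BM) of MRP8-Bcl2 mice, gene by gene, in 3 libraries of each site. These 6 libraries are part of a set of 12, and 11156 of the 28987 listed genes were tested, those with 1 TPM or more in 3 or more of the 6. TPM is a measure of transcript abundance, corrected for transcript length, whose values add up to a fixed total in every library. The remaining 6 libraries hold PT and BM neutrophils of wild-type (WT) mice. They enter the scaling and the estimate of spread behind every p-value. Their values are given only for the check of Bcl2 and where a change is set against that of WT.

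All 6 libraries come from mice of the FVB strain labelled MRP8/BCL2+. The transgene drives human Bcl-2, a protein that blocks the mitochondrial route of apoptosis, from regulatory regions of the human MRP8 gene, which are active in myeloid cells. Controls without the transgene exist only among the WT libraries, and both sites compared here carry it. All mice, those that gave BM included, had received 2 mL of thioglycollate medium into the peritoneum, an irritant that recruits neutrophils from the marrow through the blood, so the BM libraries are not from resting mice. The labels place collection at 6 h, while the methods of the study place it at 4 or 8 h. The methods describe cells of each mouse sorted by flow cytometry straight into Trizol, and the labels call the source cells macrophages, whereas the study and its design text call them neutrophils. The age of the mice was not given in the sources used here. The libraries are numbered as in the deposited columns, 1 to 3 for BM Bcl2 and 7 to 9 for PT Bcl2. Nothing ties a column to a mouse, so p-values measure the spread between libraries, taken over all 4 groups of the set.

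Neutrophils are built in the marrow in a fixed order. Proliferating promyelocytes fill primary (azurophil) granules with myeloperoxidase and serine proteases. Myelocytes, metamyelocytes and band cells then make secondary and tertiary granules and leave the cell cycle, and the mature cell is released. At a site of inflammation it senses bacterial products, complement fragments and cytokines, switches on NF-kB, AP-1 and interferon programmes, and secretes chemokines that call in more leukocytes. Aged neutrophils are then removed by macrophages, either after apoptosis or as living cells in programmed cell removal (PrCR), where calreticulin acts as an eat-me signal and CD47 as a don't-eat-me signal.

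Some facts of the libraries bear on every value. The number of genes above 0 was 12898 to 13449 in the BM Bcl2 libraries and 9731 to 12122 in the PT Bcl2 libraries, and the table gives no read totals, so a gene listed at 0 need not have been silent. The 108 genes whose transcripts hold 31 or more A or T in a row took 13.8 to 18.8% of all TPM in BM Bcl2 and 15.5, 60.2 and 65.6% in libraries 7, 8 and 9. Each library was therefore divided by a factor (0.709 to 1.27 in these 6) that gives the median of 2508 genes seen in all 12 libraries the same level. Levels below are these scaled TPM, and every change is the difference PT minus BM of log2(scaled TPM + 1), with its standard error from limma.

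Library 9 went against its label. Mouse Bcl2, the listed gene most like the human transgene, was listed at 166, 224.2 and 333 deposited TPM in BM Bcl2 and at 82.8, 58.6 and 0.695 in libraries 7, 8 and 9, and at 0.219 to 2.37 in the 6 WT libraries. The library labelled PT Bcl2 number 9 thus had a WT level of Bcl2. To which gene reads of the human transgene were assigned was not tested. It was kept under its label, and the main counts are given with and without it.

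Of the neutrophil markers fixed for the check, S100a8 and S100a9 were the most abundant, with S100a8 at 81859, 74847 and 32950.0 scaled TPM in BM and 20094, 19403 and 7999 in PT. The 8 markers summed to 65211 to 211163 scaled TPM in BM and 25818 to 55188 in PT, sums that follow the most abundant members. Gene by gene the markers did not all fall: by the test and threshold given below, 3 of the 8 rose in PT and 2 fell. Their median change was -0.83. The numbers rising and falling were 2 and 0 without library 9 and 1 and 2 without scaling. They were 3 and 0 with the centring described below. Macrophage markers summed to 24.6 to 176 in BM and 60.5 to 134.4 in PT, and the F4/80 gene Adgre1, which defines macrophages, was at 2, 15.9 and 3.06 in BM and 4.39, 0.75 and 5.88 in PT. Both sites therefore gave neutrophil libraries by these markers, and 1 of the 12 macrophage markers was at 0 in all 6. Monocyte markers (Ly6c2, Ccr2, F13a1 and Cx3cr1) summed to 417 to 1611 in BM and 63.4 to 87.3 in PT, and erythroid markers to 102 to 1327 in BM and 0.737 to 6.44 in PT, so the marrow libraries held more RNA of these markers. Fewer cells of a type and less RNA per cell cannot be told apart in bulk libraries.

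In PT, 507 genes (4.54% of those tested) were higher and 2183 (19.6%) lower than in BM, at an adjusted p under 0.05 and at least 2-fold. Without library 9 the counts were 477 (4.28%) and 2292 (20.5%), of which 410 and 1822 were called in both. The excess of lower genes rests on the scaling: the median change over all tested genes was -0.88, and with each library centred on the median of its own tested genes 1329 (11.9%) were higher and 573 (5.14%) lower. Centring moved the median change up to 0.29, which favours higher calls, and all 507 higher genes and 573 of the 2183 lower genes kept their call. In deposited TPM without scaling, which moves it down to -1.18, 344 of the 507 higher and all 2183 lower genes kept it. The counts with centring stand beside the lists below. All list counts are to be read beside 4.54% higher and 19.6% lower over all tested genes, or 11.9% and 5.14% with centring. Leaving out library 3 (BM) brought the counts to 245 and 918 and leaving out library 2 (BM) to 284 and 1128. A fit of the 6 Bcl2 libraries alone gave 381 and 1789, and 357 of the 507 higher genes and 1656 of the 2183 lower genes kept their call.

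The share of genes called higher grew with the level of expression, while the share called lower stayed between 15.5% and 21.8%. Among the 5182 tested genes with a mean under 10 scaled TPM, 0.965% were higher and 18.9% lower in PT, with a median change of -0.99. Among the 374 genes with a mean of 200 or more, 25.7% were higher and 18.7% lower, with a median change of 0.17. Of the 2183 lower genes, 365 were listed at 0 in all 3 PT libraries, and of the 507 higher genes 17 were listed at 0 in all 3 BM libraries.

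**Figure D1:**
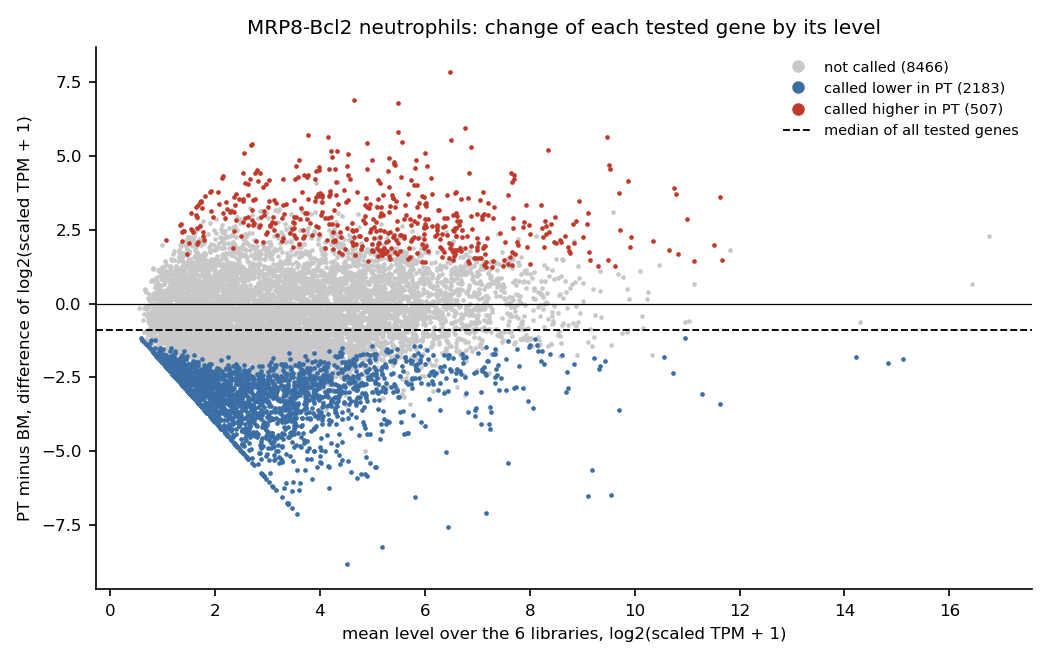
Each point is 1 of the 11156 tested genes, with its mean level over the 6 libraries on the x axis, as log2(scaled TPM + 1), and the PT minus BM difference on that scale on the y axis. Red points are the 507 genes called higher, blue points the 2183 called lower, and the dashed line is the median change of -0.88; the straight lower edge is formed by genes listed at 0 in all PT libraries.

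The largest rises among protein-coding genes called in every fit that left out 1 library were those of chemokines, their receptors and regulators of inflammation. Ccl3, a chemokine that attracts monocytes and neutrophils (chromosome 11, 83647844-83649355, GRCm38), was at 0, 17.9 and 9.7 scaled TPM in libraries 1, 2 and 3 and at 1979.7, 1607 and 807 in libraries 7, 8 and 9. The lowest PT library was far above the highest BM library, and the change was 7.87 ± 0.96 (adjusted p = 0.00036). Ccl4, its neighbour on the same chromosome (83662584-83664683), was at 1.58, 3.81 and 0 in BM and 252, 435 and 186 in PT, a change of 6.89 ± 0.82 (adjusted p = 0.00036). Hcar2, a hydroxycarboxylic acid receptor that butyrate and niacin also activate, followed with 10.2, 2.18 and 1.2 in BM and 899, 409 and 289.6 in PT. The change was 6.80 ± 0.77 (adjusted p = 0.00025). The other 7 of the 10 largest rises were Csf1, Ccrl2, Atf3, Cxcl13, Il1rn, Oasl2 and Clec4n, with changes of 5.94 down to 5.48. BM and PT libraries did not overlap for any of the 10, but these were chosen by the size of their change, so this is no separate support.

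The largest falls among protein-coding genes by the same rule included those of granule proteins and histones. Elane, which encodes neutrophil elastase (chromosome 10, 79886247-79888215), was at 465, 1234 and 3015 scaled TPM in BM and 2.85, 12 and 4.09 in PT, a change of -7.57 ± 0.80 (adjusted p = 0.00015). Mpo, myeloperoxidase, was at 962, 1616 and 3134 in BM and 6.64, 24.2 and 8.64 in PT, a change of -7.11 ± 0.70 (adjusted p = 9.1e-05). For both, the highest PT library lay far below the lowest BM library. Atp5k (a subunit of ATP synthase), the histone genes Hist1h2bk and Hist1h2ab, the beta-globin Hbb-bs and the acute phase protein Orm1 were listed at 0 in all 3 PT libraries, so no fold is given. The other 3 of the 10 were Hist1h4d, Camp and Ngp.

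**Figure D2:**
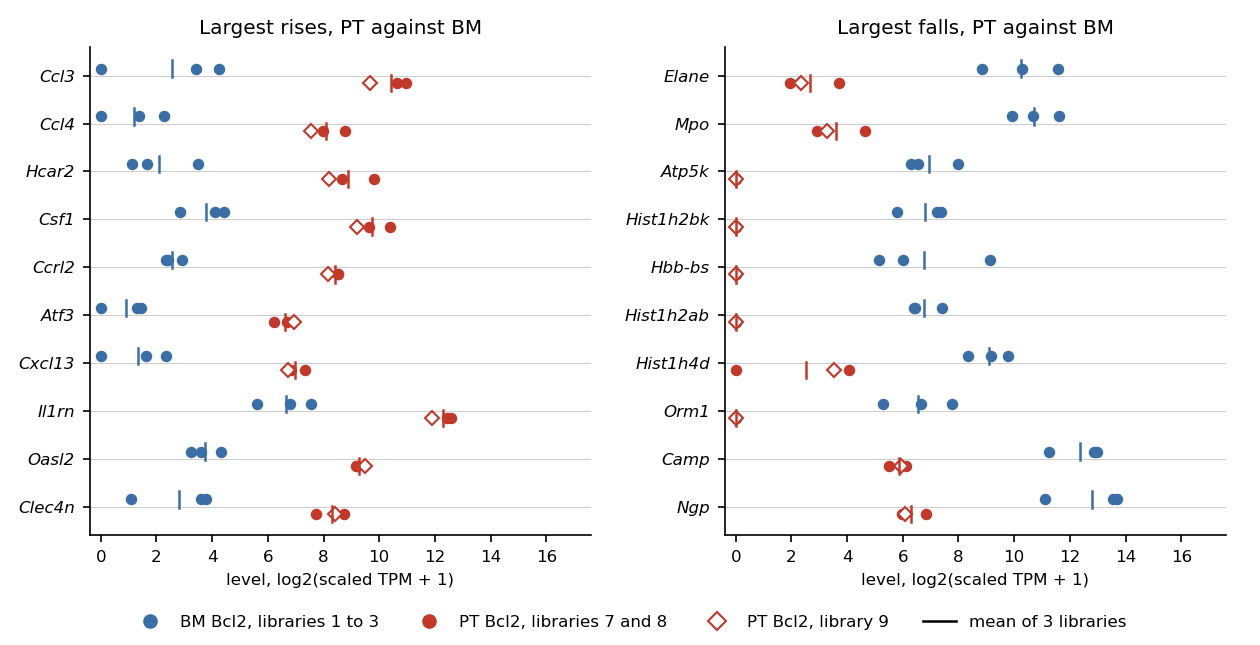
The x axis gives the level of each gene as log2(scaled TPM + 1) in each library, with BM Bcl2 in blue, PT Bcl2 in red, library 9 as an open diamond and the mean of 3 libraries as a vertical bar. The left panel holds the 10 largest rises and the right panel the 10 largest falls among protein-coding genes. In none of the 20 genes, which were chosen by the size of their change, do the BM and PT libraries overlap.

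Chemokines and cytokines were the list with the highest median change. Of 31 listed genes 23 were tested, 16 were higher in PT and 0 lower, against 4.54% of all tested genes higher, and the median change of the list was 3.68, against -0.88 over all tested genes. The count was 11 without library 3 or library 8, 16 without library 9 and 19 with centring. Il1rn, the natural antagonist of the IL-1 receptor, was the most abundant of them, at 187, 111 and 48.1 in BM and 6130.3, 5499 and 3790.0 in PT, a change of 5.64 ± 0.56 (adjusted p = 9.1e-05). Il1b, the cytokine whose receptor Il1rn blocks, was at 154, 71.3 and 12.8 in BM and 2438, 1469.6 and 2169 in PT, a change of 5.21 ± 0.81 (adjusted p = 0.0014). Agonist and antagonist thus rose together, and the antagonist had the higher level in each library of both sites. Cxcl2, a ligand of the neutrophil receptor CXCR2, was at 33.5, 18.8 and 8.78 in BM and 1629.9, 799 and 312 in PT, a change of 5.30 ± 0.69 (adjusted p = 0.00061), and library 9 was the lowest of the PT libraries.

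The growth factor Csf1, which supports macrophages, was at 16.4, 20.2 and 6.27 in BM and 1335, 789 and 592 in PT, a change of 5.94 ± 0.54 (adjusted p = 8.4e-05). The monocyte attractant Ccl2 was at 1.14, 2.72 and 7.12 in BM and 157, 41.2 and 127 in PT (4.56 ± 1.14, adjusted p = 0.013), the B cell attractant Cxcl13 rose by 5.64, and Cxcl1, another CXCR2 ligand, rose to a low level, at 0, 2.16 and 0 in BM and no more than 19.7 in PT (3.70 ± 0.76, adjusted p = 0.0054). Tnf was at 20.3, 24.6 and 8.36 in BM and 50.5, 113 and 59.7 in PT (2.04 ± 0.55, adjusted p = 0.018), and its adjusted p was 0.084 without library 3 and 0.064 without library 8. Other inflammatory cytokines were near 0: Il6 was at most 1.42 deposited TPM and Il10 at most 1.88 in any of the 6 libraries, and neither was tested.

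The stretch just before the start of a gene is where many of the factors that act in inflammation bind, and the sequences below show it for 3 of these risers and for 2 interferon-stimulated genes described further on. Each is the 250 bases before the start in the RefSeq promoter table (GRCm38.p6), written 5′ to 3′ on the strand of the gene. Capitals mark matches, on either strand and merged where they overlap, to a kappaB-type motif, GGG and TTCC with 3 bases of any kind between them, as NF-kB binds, or to a motif of the interferon-stimulated response element type, GAAA and GAAA with 2 bases of any kind between them.
Cxcl2 (chr5:90903649-90903898, plus strand): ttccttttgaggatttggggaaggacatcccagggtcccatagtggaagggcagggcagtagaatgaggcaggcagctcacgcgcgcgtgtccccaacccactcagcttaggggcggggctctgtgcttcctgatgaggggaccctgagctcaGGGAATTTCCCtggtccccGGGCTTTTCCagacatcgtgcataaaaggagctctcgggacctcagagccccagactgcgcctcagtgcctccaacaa
Csf1 (chr3:107760470-107760719, minus strand): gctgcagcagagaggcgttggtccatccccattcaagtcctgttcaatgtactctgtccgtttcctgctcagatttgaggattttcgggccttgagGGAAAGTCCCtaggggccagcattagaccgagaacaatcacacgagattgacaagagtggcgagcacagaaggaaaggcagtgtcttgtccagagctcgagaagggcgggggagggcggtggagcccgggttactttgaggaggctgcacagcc
Ccl3 (chr11:83649379-83649628, minus strand): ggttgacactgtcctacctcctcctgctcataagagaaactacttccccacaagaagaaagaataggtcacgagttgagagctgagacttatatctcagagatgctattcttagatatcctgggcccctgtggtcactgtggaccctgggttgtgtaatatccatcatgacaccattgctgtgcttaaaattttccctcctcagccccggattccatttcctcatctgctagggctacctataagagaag
Isg15 (chr4:156200819-156201068, minus strand): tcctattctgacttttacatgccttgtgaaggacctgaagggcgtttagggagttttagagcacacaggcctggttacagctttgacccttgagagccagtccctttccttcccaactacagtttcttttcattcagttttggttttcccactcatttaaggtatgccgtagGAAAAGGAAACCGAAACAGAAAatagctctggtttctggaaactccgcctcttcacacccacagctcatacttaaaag
Rsad2 (chr12:26456453-26456702, minus strand): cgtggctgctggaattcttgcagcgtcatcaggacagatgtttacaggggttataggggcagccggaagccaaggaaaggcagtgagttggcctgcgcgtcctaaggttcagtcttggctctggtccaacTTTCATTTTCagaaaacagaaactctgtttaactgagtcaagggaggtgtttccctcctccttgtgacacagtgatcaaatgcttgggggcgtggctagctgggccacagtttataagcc
The Cxcl2 window held 3 kappaB-type matches, 2 of them overlapping on opposite strands, that of Csf1 1 and that of Ccl3 none. The Isg15 window held 3 overlapping matches to the interferon-type motif and that of Rsad2 1. Of all 27025 genes with such a window 4.6% held the kappaB-type motif in this window and 3.0% the interferon-type motif. Of the 16 chemokine and cytokine genes called higher, 13 had a promoter in the table and 5 held the kappaB-type motif, and of the 13 interferon-stimulated genes called higher, 12 had a promoter and 7 held the interferon-type motif. Over all members of these lists with a promoter, called or not, the numbers were 7 of 21 and 11 of 22. For all 383 genes called higher with a promoter the shares were 9.1 and 6.8%, and for the 1708 called lower 4.7 and 2.3%. A match is a description of the letters and not evidence of binding.

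Many receptors through which neutrophils sense chemokines, complement and growth factors passed the test. Of 25 tested genes 11 were higher and 0 lower, against 4.54% of all tested genes higher, with a median change of 1.32. The number higher was 6 without library 3, 8 without scaling and 17 with centring. Ccrl2, a receptor that binds the attractant chemerin without signalling, was at 4.12, 4.37 and 6.56 in BM and 365, 366 and 288 in PT, a change of 5.84 ± 0.56 (adjusted p = 9.1e-05). Csf3r, the G-CSF receptor, was at 782, 114 and 132 in BM and 3601, 2782 and 2889.5 in PT (3.75 ± 0.74, adjusted p = 0.0045), with library 1 the highest of BM and still below all PT libraries. Ptafr, the receptor for platelet-activating factor, rose by 3.55, Il1rap, the signalling partner of the IL-1 receptor, by 3.00, and Tnfrsf1b, a TNF receptor, by 2.55.

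Among regulators downstream of these receptors, 5 of 20 tested NF-kB genes were higher and 0 lower (10 and 0 with centring), against 4.54% of all tested genes higher. The median change was 1.12, and 4 of the 5 calls held in every fit that left out 1 library. Tnfaip3 (A20), an enzyme that shuts off NF-kB signalling, was at 4.06, 6.29 and 5.24 in BM and 181, 159 and 102 in PT, a change of 4.55 ± 0.51 (adjusted p = 0.00024). Traf1 rose by 4.22, Nfkb2 by 2.92 and Birc3 by 2.77. These 4 act in or restrain the pathway, and 3 of the 4 levels were lowest in library 9 among the PT libraries.

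Among the AP-1 and immediate early genes 12 of 26 tested members were higher and 0 lower (15 and 0 with centring, 10 and 1 without library 9), against 4.54% of all tested genes higher. The median change was 1.91. Atf3, a repressor induced by stress, was at 1.47, 1.71 and 0 in BM and 102, 74.4 and 122 in PT, a change of 5.71 ± 0.81 (adjusted p = 0.00083). The orphan nuclear receptors Nr4a1 and Nr4a3 rose by 4.54 and 3.60, and Zfp36, whose protein degrades cytokine mRNAs, was at 356, 115 and 137 in BM and 1051, 1186 and 1223 in PT (2.69 ± 0.63, adjusted p = 0.01). Of the MAP kinase phosphatase and stress genes 7 of 16 were higher and 0 lower (8 and 0 with centring, 4 and 0 without scaling). Without library 2, 3, 7 or 8, 2 to 4 were higher. Dusp1, which switches off p38 and JNK, was the most abundant, at 482, 77.6 and 73.4 in BM and 4919, 3728 and 2798 in PT, a change of 4.72 ± 0.76 (adjusted p = 0.0017), and Dusp5 rose by 4.10.

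Of 27 tested interferon-stimulated genes 13 were higher and 0 lower, against 4.54% of all tested genes higher, and 14 did not pass the test. The median change was 1.79, the number higher was 8 without library 3 and 15 with centring, and without library 9 it was 12, with 1 lower. Oasl2, an antiviral oligoadenylate synthetase-like protein, was at 18.9, 11.3 and 8.48 in BM and 589, 570.4 and 711 in PT, a change of 5.55 ± 0.76 (adjusted p = 0.00071). Rsad2 (viperin) was at 2.07, 2.98 and 1.45 in BM and 123, 132 and 81.3 in PT (5.16 ± 0.70, adjusted p = 0.00071), and Ifitm1, the most abundant, at 571, 116 and 50.8 in BM and 3668, 3282 and 3873 in PT (4.57 ± 0.86, adjusted p = 0.0035). The 3 PT libraries lay close together for these genes. They differed widely for Gbp2, a guanylate-binding protein, at 31.8, 345 and 134 in PT against 1.41, 5.86 and 4.49 in BM (4.68 ± 0.97, adjusted p = 0.0054). Isg15, a ubiquitin-like modifier, was at 1.27, 3.05 and 1.98 in BM and 92.7, 26.2 and 83 in PT (4.31 ± 0.94, adjusted p = 0.0068).

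Sensors of microbial and fungal products gave fewer calls. Of 24 tested Toll-like receptors, C-type lectin receptors and adaptors 7 were higher and 0 lower (12 and 0 with centring), against 4.54% of all tested genes higher. The median change was 1.07. Clec7a (Dectin-1), a receptor for beta-glucan, was at 13.9, 10.3 and 2.18 in BM and 312, 218 and 165 in PT, a change of 4.79 ± 0.62 (adjusted p = 0.00054). Cd14, the co-receptor for lipopolysaccharide, was at 109, 30.9 and 29.9 in BM and 1354, 849 and 621 in PT (4.23 ± 0.75, adjusted p = 0.0028). Its partner Tlr4 was at 42.4, 39 and 35.7 in BM and 211, 310.4 and 196 in PT (2.56 ± 0.41, adjusted p = 0.0016), and Irak2, an adaptor of these receptors, rose by 4.02.

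Of 18 tested genes that restrain activated myeloid cells 10 were higher and 1 lower (11 and 0 with centring), against 4.54% and 19.6% of all tested genes. The median change was 1.93. Arg2, an arginase, was at 58, 4.43 and 0.86 in BM and 185, 265 and 211 in PT, a change of 4.70 ± 0.98 (adjusted p = 0.0056). Socs3, an inhibitor of cytokine signalling, was at 18.6, 5.44 and 7.51 in BM and 127, 129 and 136 in PT (3.69 ± 0.77, adjusted p = 0.0056). Nlrp3, the sensor of the inflammasome that matures IL-1 beta, is on this list too and rose by 4.07, while the inhibitory receptor Cd300a rose by 2.91. Library 1 was the highest BM library for Arg2, Socs3 and Nlrp3.

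The genes of itaconate, iron and antioxidant defence split. Of 23 tested members 9 were higher and 3 lower (12 and 2 with centring), against 4.54% and 19.6% of all tested genes. Acod1, the enzyme that makes the immune metabolite itaconate, was at 8.07, 3.42 and 1.29 in BM and 303, 223 and 107 in PT, a change of 5.43 ± 0.74 (adjusted p = 0.00071). The iron store Fth1 was among the most abundant mRNAs of PT, at 1645, 712 and 641 in BM and 15725, 11325 and 7654 in PT (3.61 ± 0.54, adjusted p = 0.0012), and its partner Ftl1 rose by 2.86. Nfe2l2, the master factor of the antioxidant response, and Slc7a11, the cystine importer it controls, rose by 2.81 and 4.19. The peroxiredoxins Prdx2 and Prdx5 fell by 3.86 and 3.61, both also with centring.

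Genes of granule proteins made while neutrophils mature fell. Of 9 tested genes of the primary granule list 7 were lower and 1 higher, against 19.6% of all tested genes lower, with a median change of -5.54, and 7 were lower with centring. Ctsg, cathepsin G, was at 30.8, 57.3 and 312 in BM and 0, 0 and 0.905 in PT, a change of -6.07 ± 0.83 (adjusted p = 0.00071), and Prtn3, proteinase 3, at 67.2, 169.6 and 486 in BM and 0, 5.48 and 16.8 in PT (-5.19 ± 1.23, adjusted p = 0.01), with an adjusted p of 0.055 without library 3. Library 3 had the highest BM level of Elane, Mpo, Ctsg and Prtn3 and library 1 the lowest. The riser was Srgn, the proteoglycan core on which granule proteins are packed and which other leukocytes make as well, at 570.2, 317 and 478 in BM and 7316, 7438 and 5676 in PT (3.93 ± 0.54, adjusted p = 0.00074).

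In the list of secondary and tertiary granule genes 8 of 16 were lower and 0 higher, against 19.6% of all tested genes lower, with a median change of -2.62. With centring 6 were lower. Camp, the cathelicidin precursor, was at 7485, 8098 and 2410.5 in BM and 44.5, 67.9 and 60 in PT, a change of -6.52 ± 0.57 (adjusted p = 8.3e-05). Ltf, lactoferrin, was at 2554, 2345 and 319 in BM and 29.7, 22.2 and 34.7 in PT (-5.40 ± 0.72, adjusted p = 0.00067). Library 3 was the lowest BM library for both, the reverse of its place among the primary granule genes. Mmp9, a gelatinase of tertiary granules that is made late, was at 476, 77.4 and 71.7 in BM and 107, 219 and 114 in PT, and Mmp8, made with the secondary granules, at 1650.1, 102 and 231 and 54.1, 102 and 50.6, neither past the threshold. Lcn2, also an acute phase protein, fell by 3.07 but lost the call with centring.

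The NADPH oxidase, which makes the oxidants of the respiratory burst, gave 2 lower genes of 8 tested and 0 higher (1 lower with centring), with a median change of -0.94, near the -0.88 of all tested genes, of which 19.6% were lower. Cybb, the catalytic subunit gp91phox, was at 546, 947 and 328 in BM and 8.75, 66.4 and 50.4 in PT, a change of -4.10 ± 0.67 (adjusted p = 0.0018). Its cytosolic partner Ncf1 was at 419, 231 and 168 in BM and 97.6, 202 and 110.1 in PT, not past the threshold. The other lower gene, the proton channel Hvcn1, fell by 3.00 and lost the call with centring.

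Cell cycle genes were lower almost throughout. All 40 listed genes were tested, 36 were lower and 0 higher, against 19.6% of all tested genes lower. The median change was -4.20, and 28 were lower with centring. Mki67, a nuclear protein of cycling cells, was at 153, 320.3 and 395 in BM and 17.8, 8.16 and 19.9 in PT, a change of -4.14 ± 0.62 (adjusted p = 0.0011). Top2a, the topoisomerase of dividing cells, was at 123, 262 and 372 in BM and 2.6, 10.3 and 32.2 in PT (-4.38 ± 0.81, adjusted p = 0.0033). Hmgb2, a chromatin protein, was at 503, 813 and 719 in BM and 17.7, 40.4 and 52.8 in PT (-4.26 ± 0.53, adjusted p = 0.00039). The highest PT library stayed below the lowest BM library for all 3. Plk1, a mitotic kinase, was listed at 0 in all PT libraries against 12.1, 23.4 and 27.6 in BM. Erythroid and monocyte markers, whose precursors divide in the marrow, fell beside these genes (sums above), and their part in the fall was not tested.

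Among transcription factors of granulopoiesis more were called lower than higher, and the share higher was near that of all tested genes on the main scale. Of 16 tested, 6 were lower and 1 higher, against 19.6% and 4.54% of all tested genes, and 3 lower and 1 higher with centring. Cebpe, the factor that drives secondary granule genes, was at 49.3, 56.9 and 49.1 in BM and 0, 2.94 and 2.72 in PT, a change of -4.43 ± 1.06 (adjusted p = 0.011). Myb, a factor of progenitors, was at 10.9, 25.3 and 38.9 in BM and 0, 0.453 and 0.206 in PT (-4.26 ± 0.80, adjusted p = 0.0036). Cebpb, the member used in emergency granulopoiesis and in inflamed cells, went the other way, at 36.8, 31.5 and 52.5 in BM and 141, 192 and 126 in PT (1.91 ± 0.55, adjusted p = 0.023). Its adjusted p was 0.051, 0.083 and 0.068 without library 1, 2 and 8, and 0.066 without scaling.

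Housekeeping lists also lay below the median gene, but here the number of calls depended on which scaling was chosen. Over all tested genes 19.6% were lower, and 5.14% with centring. Quantile normalization gave 885 lower of the 11156 genes. On that scale 19 genes of oxidative phosphorylation, 12 of the proteasome and 17 of ribosomal proteins were lower, so centring removed calls that it kept. Of 40 tested genes of oxidative phosphorylation 24 were lower and 0 higher, with a median change of -2.78, 8 with centring, 14 without library 2 and 7 without library 3. Cox4i1, a subunit of cytochrome c oxidase, was at 49.7, 91.2 and 159 in BM and 1.3, 9.52 and 0 in PT (-4.97 ± 1.09, adjusted p = 0.007), and Ndufa4 at 93, 123 and 191 and 10.8, 6.21 and 12.5 (-3.64 ± 0.58, adjusted p = 0.0015). Of 32 tested proteasome genes 16 were lower, 9 with centring, 11 without library 2 and 7 without library 3. Psmc3, an ATPase of the regulatory particle, was at 33.4, 50.5 and 71.4 in BM and 0.54, 0.619 and 0.571 in PT (-5.0 ± 0.59, adjusted p = 0.00032). Of 58 tested ribosomal protein genes 15 were lower, against 19.6% of all tested genes. The number was 1 with centring, 9 without library 2 and 1 without library 3, and 1 kept its call in every fit that left out 1 library. Some of these genes were listed at 0 in 1 or more PT libraries, as Cox4i1 was in library 9, and the reason was not tested.

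**Figure D3:**
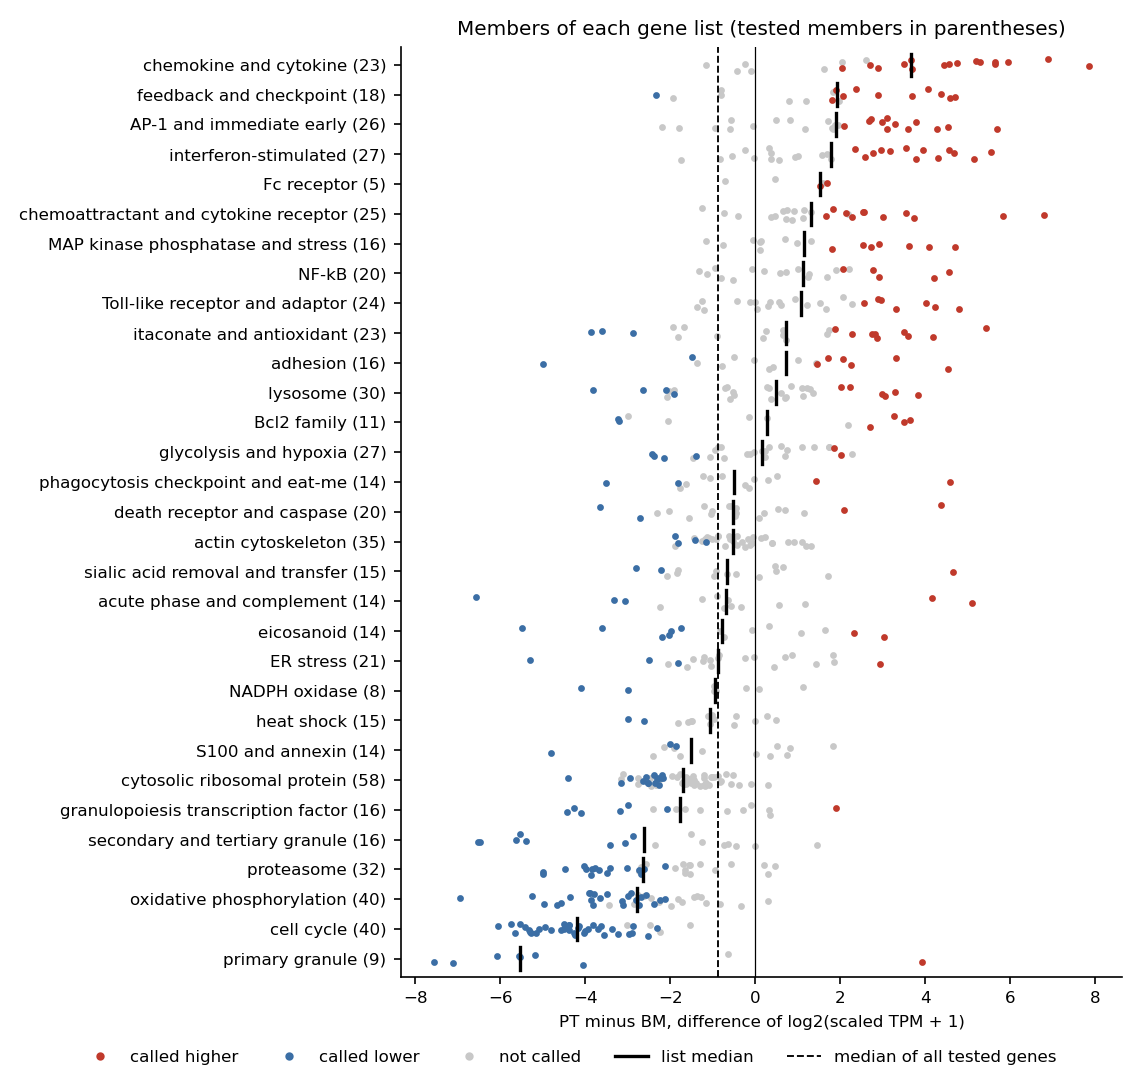
Each row is a gene list with the number of tested members in parentheses, and each point is a member, placed on the x axis by its PT minus BM difference of log2(scaled TPM + 1), red where called higher, blue where called lower and grey otherwise. Thick bars are list medians and the dashed line is the median of all tested genes at -0.88, and the medians run from 3.68 for chemokines and cytokines to -5.54 for primary granule genes.

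Genes of survival and death gave calls in both directions on the main scale. Of 11 tested members of the Bcl2 family 4 were higher and 2 lower (5 and 0 with centring), against 4.54% and 19.6% of all tested genes. Mcl1, the anti-apoptotic protein on which neutrophils depend, was at 276, 182 and 189.6 in BM and 1210.0, 1623 and 1382 in PT, a change of 2.71 ± 0.45 (adjusted p = 0.0018). The pro-apoptotic Bcl2l11 (Bim) was at 7.3, 8.78 and 15.3 in BM and 94.1, 123 and 101 in PT (3.28 ± 0.61, adjusted p = 0.0034), and Pmaip1 (Noxa), which opposes Mcl1, at 0.8, 9.06 and 3.79 in BM and 54.1, 44.7 and 65.3 in PT (3.64 ± 0.65, adjusted p = 0.0029). Protective and lethal members thus rose side by side in all 3 PT libraries, library 9 included. Bcl2 itself was 1 of the lower genes (-3.23 ± 1.10, adjusted p = 0.046), a call that rests on library 9: without it the change was -1.47 (adjusted p = 0.11).

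Of 20 tested death receptors, caspases and their partners 2 were higher and 2 lower (4 and 1 with centring), against 4.54% and 19.6% of all tested genes. Fas, the death receptor, was at 15.1, 0 and 7.38 in BM and 87.3, 95.5 and 139.7 in PT, a change of 4.37 ± 0.88 (adjusted p = 0.0049). Casp8, the caspase that death receptors engage, was at 29.7, 69.9 and 75.1 in BM and 40.3, 81.6 and 59 in PT, and the libraries overlapped.

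Genes of the signals by which macrophages recognise neutrophils were looked at because the study is about PrCR. The study reports very little calreticulin RNA and protein in neutrophils, and that macrophages secrete the calreticulin found on them. It also reports that calreticulin on the surface of MRP8-Bcl2 neutrophils increased with time after thioglycollate. Calr mRNA of neutrophils is thus not a measure of that surface signal. Calr, which encodes calreticulin (chromosome 8, 84841850-84846934), was at 54, 103 and 139 in BM and 16.2, 21.2 and 46.4 in PT, and the libraries did not overlap. The change was -1.82 ± 0.55 (adjusted p = 0.029) and -2.25 without library 9 (adjusted p = 0.017). It was less than 1 below the median of all tested genes, its adjusted p was 0.35 with centring, and it was 0.091, 0.12, 0.08 and 0.072 without library 2, 3, 7 and 8. Cd47 was at 294, 373 and 222 in BM and 313, 187 and 80.2 in PT (-0.79 ± 0.51, adjusted p = 0.27), with library 7 inside the BM range and library 9 the lowest. Cd274 (PD-L1), a checkpoint ligand listed with these signals, was at 6.22, 20.7 and 8.51 in BM and 197, 399 and 263 in PT, a change of 4.59 ± 0.56 (adjusted p = 0.00036), and was the largest rise of the 14 tested genes of this list. Of these 14, 2 were higher and 2 lower (1 to 2 and 1 to 4 without 1 library, 2 and 1 with centring), against 4.54% and 19.6% of all tested genes. Plscr1, a scramblase by name, was the largest fall, at 102, 166 and 50.7 in BM and 0.873, 11.5 and 24.8 in PT (-3.51 ± 0.80, adjusted p = 0.0083).

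Removal of sialic acid from surface glycans is part of the study's account of calreticulin binding. Neu1, the lysosomal neuraminidase, was at 23.6, 19.5 and 29.3 in BM and 1.69, 14.5 and 3.83 in PT (-2.08 ± 0.80, adjusted p = 0.072), lower in all 3 PT libraries but not past the threshold. It passed in deposited TPM without scaling (-2.43, adjusted p = 0.04) and without library 8 (-2.78, adjusted p = 0.036), and with centring the change was -0.96 (adjusted p = 0.38). Neu2 was listed at 0 in all 6 libraries, Neu3 at 0.467 to 4.53 deposited TPM and Neu4 at most 0.939, and none of these 3 was tested. Among the enzymes that add sialic acid St3gal6, which caps galactose on selectin ligands, was at 26.3, 7.8 and 8.3 in BM and 428, 228 and 367 in PT, a change of 4.66 ± 0.95 (adjusted p = 0.0053). St3gal2 was at 12, 9.37 and 3.69 in BM and 0.151, 0 and 0.627 in PT (-2.80 ± 0.69, adjusted p = 0.013), a call lost with centring. Of the 15 tested genes of the list 1 was higher and 2 lower, with centring 3 and 0, against 4.54% and 19.6% of all tested genes on the main scale.

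**Figure D4:**
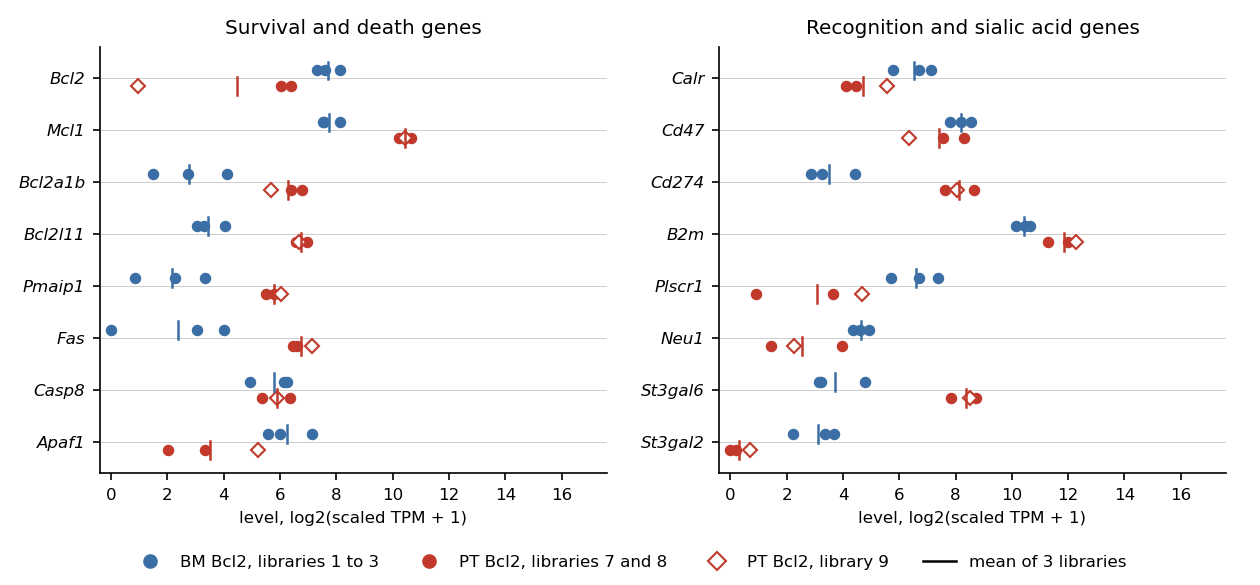
Levels of 8 survival and death genes (left) and 8 recognition and sialic acid genes (right), as log2(scaled TPM + 1) on the x axis, with BM Bcl2 in blue, PT Bcl2 in red, library 9 as an open diamond and the mean of 3 libraries as a vertical bar. Library 9 stands apart from the other PT libraries for Bcl2, at 0.934 scaled TPM, and lies among or near them for the rest.

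Adhesion molecules gave calls in both directions, with those lower no more frequent than over all tested genes on the main scale. Of 16 tested 6 were higher and 2 lower (8 and 1 with centring, 2 and 2 without scaling), against 4.54% and 19.6% of all tested genes. The number higher was 2 without library 2, 3 or 7 and 3 without library 8. Icam1, a ligand of beta-2 integrins, was at 0, 3.86 and 6.22 in BM and 72.6, 59.4 and 97.3 in PT, a change of 4.53 ± 0.79 (adjusted p = 0.0025). Itgb2l, a beta-2-like integrin chain of immature neutrophils, was at 114, 132 and 37.7 in BM and 1.61, 0.308 and 4.22 in PT (-5.0 ± 0.67, adjusted p = 0.00067). Of 30 lysosomal genes 6 were higher and 4 lower (2 to 5 and 1 to 5 in the fits without 1 library), and 11 and 1 with centring, against 11.9% and 5.14% of all tested genes. Among the higher was Ctsd, cathepsin D, at 270.0, 205 and 122 in BM and 1959, 2031 and 1013 in PT (3.07 ± 0.69, adjusted p = 0.0077). Of the eicosanoid genes 2 of 14 were higher and 6 lower, against 4.54% and 19.6% of all tested genes, 4 higher and 2 lower with centring, and 2 to 4 lower without 1 library. Lta4h, which makes the attractant leukotriene B4, was at 90.5, 135 and 139 in BM and 0, 17.9 and 0 in PT (-5.50 ± 1.03, adjusted p = 0.0036).

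Among the acute phase and complement genes 2 of 14 were higher and 3 lower (2 and 2 with centring), against 4.54% and 19.6% of all tested genes. Saa3, an acute phase apolipoprotein, was at 0, 14.2 and 87 in BM and 519, 338 and 305 in PT, a change of 5.10 ± 1.32 (adjusted p = 0.015), and Wfdc17, a secreted protein of activated phagocytes, at 613, 102 and 173 and 3400.2, 7339 and 2553 (4.17 ± 0.89, adjusted p = 0.0064). Of the S100 and annexin genes 3 of 14 were lower and 0 higher, near the 19.6% lower of all tested genes (1 lower without library 1, 2, 7 or 8, and 1 lower and 1 higher with centring), with Anxa3 at 119, 123 and 79.8 in BM and 3.74, 1.61 and 3.45 in PT (-4.80 ± 0.71, adjusted p = 0.0011). Glycolysis (2 of 27 higher, 4 lower), ER stress (1 of 21 higher, 3 lower), heat shock (0 of 15 higher, 2 lower), actin (0 of 35 higher, 4 lower) and Fc receptor genes (2 of 5 higher, 0 lower) gave few calls, at most 5 in either direction in every fit without 1 library. Over all tested genes 4.54% were higher and 19.6% lower. The 2 of 5 Fc receptors higher are a larger share than the 4.54%, and the median change of this short list was 1.53. Without scaling, and also with quantile normalization, the Fc receptors gave 0 higher and 0 lower. With centring the calls turned for some of these lists. Glycolysis then gave 5 higher and 0 lower, ER stress 4 and 1, heat shock 0 and 0, actin 4 and 0 and the Fc receptors 3 and 0, so no direction is given for glycolysis, ER stress or actin genes.

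Whether these changes belong to the transgenic cells can only be asked of the difference between the genotypes. Over the same 11156 genes the PT minus BM change was not the same in MRP8-Bcl2 and WT for 1 gene (0.00896% of those tested) by the adjusted p, while 1222 genes had an unadjusted p under 0.05. Beside these 1222 of 11156, 2 of the 23 tested chemokine and cytokine genes had an unadjusted p under 0.05. The counts were 3 of 27 interferon-stimulated, 5 of 40 cell cycle and 9 of 40 oxidative phosphorylation genes, and no list was tested for a difference. Of the genes called in MRP8-Bcl2, 125 of the higher and 215 of the lower were called in the same direction in WT, where 171 (1.53%) were higher and 258 (2.31%) lower. That is 24.7% of the higher genes of MRP8-Bcl2 and 73.1% of those of WT, and 9.85% and 83.3% of the lower genes. The BM to PT change of Mcl1 was 2.71 in MRP8-Bcl2 and 1.89 in WT (unadjusted p of the difference = 0.21), that of Calr -1.82 and 0.07 (0.029), and that of St3gal6 4.66 and 3.70 (0.49). None of the 3 differed at the adjusted threshold, which does not show that they were alike.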

How the data were processed

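Per the labels and the methods of the study, RNA of sorted cells was sequenced in 12 libraries and the authors ran AltAnalyze at default values. Its version, the genome build and the annotation were not given in the sources used here. The deposited table of libraries holds log2(TPM + 1) per gene, which was converted back to TPM. A table of group means in TPM, made by the authors, equals the means of these columns and served only as a check. The authors' own comparisons, correlations, marker selection and lineage scores were not used, nor were 2 columns (estimated reads and TPM) of a library whose sample is unknown. TPM keeps no read totals, so the depth of each library is unknown, and no interval for counting error or detection limit can be given.

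Each library was scaled as described in the report, with 2508 genes at 5 TPM or more in all 12 libraries. Changes were tested with limma 3.58.1 in R 4.3.3 (two-sided moderated test with a trend in the variance), in 1 fit of the 4 groups with 8 residual degrees of freedom and a pseudocount of 1, and p-values were adjusted by Benjamini-Hochberg over all 11156 genes. A gene was called at an adjusted p under 0.05 and at least 2-fold, and a difference between genotypes at the adjusted p alone. The SE is that of the fit, with n = 3 libraries a group. Names and coordinates come from GENCODE M21 (GRCm38), in which 27458 of the 28987 gene IDs had a record. The scripts were tested on simulated data.

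Named genes are Bcl2, Calr, Cd47 and Neu1 to Neu4, members of the gene lists, the 10 largest rises and falls among protein-coding genes called in every fit without 1 library, and the 5 genes with the smallest p for the difference between genotypes. The comparison and the lists were chosen with earlier results of these data known. Some genes are not reported here.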

Additional observations from a re-analysis of the deposited data

Results flagged for a closer look

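The change from BM to PT of Gm12191, listed as a processed pseudogene (chromosome 11, 49678710-49679057, GRCm38), differed between MRP8-Bcl2 and WT, which was the only gene to pass the limma interaction test at an adjusted p under 0.05. It was at 452, 416 and 619 scaled TPM in BM Bcl2 and 0.0679, 0 and 0.12 in PT Bcl2, and at 177, 200.9 and 53.1 in BM WT and 143, 124 and 200.03 in PT WT. The difference of the changes, Bcl2 minus WT, was -9.15 ± 0.75 (SE, adjusted p = 6.8e-05), with a change of -8.85 in MRP8-Bcl2 and 0.30 in WT. Reads of a processed pseudogene can also come from the gene it copies, so its level is uncertain. With 3 libraries a group, single libraries were not tested for standing apart within their group.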

How the results depend on the processing

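The counts of called genes moved with the scaling, the threshold and the libraries kept, and their split into higher and lower mainly with the scaling. Against 507 higher and 2183 lower, centring gave 1329 and 573 (1369 and 514 without library 9, against 477 and 2292) and quantile normalization 908 and 885 (759 and 722). The share of higher genes among the called was thus 18.8% as reported, 10.8% without scaling (344 and 2844), 69.9% with centring and 50.6% with quantile normalization, and the median change was -0.88, -1.18, 0.29 and 0.0066. TPM rescaled without the genes holding a run of 31 A or T, an alternative chosen after seeing the data, gave 637 and 1386, or 31.5% higher. An adjusted p under 0.01 left 178 and 670 (125 and 589 without library 9). Without library 9, no filter on low values gave 312 and 1414 and a fit of the Bcl2 libraries alone 317 higher. Leaving out 1 library gave 245 to 478 higher and 918 to 2292 lower, and 198 and 766 genes were called in all 6 such fits. The gene that differed between genotypes was 1, or 3 without scaling, 3 with a pseudocount of 0.1, and 1 to 2 without 1 library. The cause of these shifts was not tested. Scaling on genes at 1 TPM or more, the filter at 5 TPM, the fit without a trend and the fold minimum left the counts within 1.5 times.

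Of the 105 genes followed singly, 95 kept direction and side of the threshold with centring, 98 with quantile normalization and 100 without scaling. The reversed ones were not called in the report. Casp8 was at -0.26 without scaling and, without 1 library, at -0.32 (library 1) to 0.36, with -0.14 without library 8. Mmp9 was at -0.36 without scaling, -0.11 with quantile normalization, and, without 1 library, at -0.47 (library 3) to 0.89, with -0.41 and -0.32 without library 2 and 8. Adgre1 was at 0.68 with centring, 0.69 with quantile normalization, and, without 1 library, at -1.05 to 0.20 (library 2), with 0.043 without library 8. Cd47 was at 0.32 and Ncf1 at 0.15 with centring.

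No paired analysis was possible because the columns carry neither a replicate number nor a mouse. TPM holds no read totals, so the precision of low values is unknown, and a gene listed at 0 in PT gives no size of fall. Library 9 carries a WT level of Bcl2. Over the 2508 scaling genes its Spearman correlation was 0.662 and 0.797 with libraries 7 and 8 (PT Bcl2), and 0.856, 0.873 and 0.712 with libraries 10, 11 and 12 (PT WT). Library 8 also had 0.801 and 0.804 with libraries 10 and 11. Gm12191 was at 0.12 scaled TPM in library 9, at 0.0679 and 0 in libraries 7 and 8, and at 53.1 or more in the WT libraries. Whether the label is right was not tested.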

Other observations

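The next 4 genes by the p of the difference between genotypes did not pass its adjusted threshold. Plekho1, a regulator of the actin cytoskeleton and of signalling (chromosome 3, 95988429-95996001, GRCm38), was at 24.8, 29.9 and 45.1 scaled TPM in BM Bcl2 and 1.32, 0.758 and 0.702 in PT Bcl2, and at 6.78, 2.03 and 0 in BM WT and 9.01, 19.6 and 26.8 in PT WT. It fell in MRP8-Bcl2 (-4.12 ± 0.78, adjusted p = 0.0037, limma), and the adjusted p of the difference was 0.084. Gm8186, a processed pseudogene, was at 64.1, 37.1 and 115 in BM Bcl2, listed at 0 in all PT Bcl2 libraries, and at 14.9, 0 and 0 in BM WT and 24.5, 30.8 and 6.12 in PT WT. 1700047A11Rik, an antisense gene, was at 1.65, 4.01 and 10.2 in BM Bcl2, listed at 0 in all PT Bcl2 and BM WT libraries, and at 20.8, 7.85 and 3.74 in PT WT. Both had an adjusted p of the difference of 0.084, and no fold is given for a group listed at 0. Bex6 was at 7.19, 10.4 and 6.66 in BM Bcl2, and all 9 remaining libraries list it at 0 (adjusted p of the difference = 0.14).

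Ly6g, which encodes the surface protein used to define mouse neutrophils, had the changes -1.24 ± 1.12 in MRP8-Bcl2 and -7.36 in WT, with an unadjusted p of the difference of 0.0017 and an adjusted p of 0.31 in limma. In deposited TPM it was at 1225, 203 and 51.5 in BM Bcl2 and 58.9, 60.4 and 126 in PT Bcl2, against 588, 1059 and 1266 in BM WT and 13.1, 14.9 and 0 in PT WT. The BM Bcl2 libraries overlap with PT Bcl2 for this marker, and library 1 is far above libraries 2 and 3.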
